A study of Mus musculus with 29 samples.

Results

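Fully grown oocytes lacking Dhx36 by genotype were compared between 3-week-old and 4-week-old females. The comparison rested on 5 poly(A) RNA libraries of the 29 in the series, 2 from CKO fully grown oocytes at 3 weeks (CKO FGO 3W) and 3 from CKO fully grown oocytes at 4 weeks (CKO FGO 4W), chosen by their column labels. All 49997 genes of the count table entered, and 21768 passed the filter on low counts and were tested. CKO females carried Dhx36 fl/fl with Zp3-Cre, a Cre driven by a zona pellucida gene promoter that is active in growing oocytes. WT females carried Dhx36 fl/fl without a stated Cre, so that both genotypes share the floxed alleles. The same age comparison in WT used 2 WT FGO 3W and 3 WT FGO 4W libraries, and 3 libraries of CKO growing oocytes from 2-week-old females (CKO GO 2W) are given as levels. Each library was made with Smart-seq2, a full-length cDNA method, from a tube of 10 pooled cells. Whether the tubes of a group came from different females is not stated, so p-values measure the spread between tubes. That spread was estimated in a fit of all 29 libraries, other stages included, and not from the fully grown oocyte tubes alone.

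DHX36 is a DEAH-box helicase that unwinds G-quadruplexes, stacked structures that guanine-rich DNA and RNA can form. A fully grown oocyte has largely ended transcription and carries a store of maternal mRNA that later serves meiotic maturation and the first cleavages. Levels of mRNA in such cells therefore reflect what was transcribed during growth and how long each transcript is kept.

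Levels are given in counts relative to the scaled library total (CPM), scaled by TMM factors, and fold changes are those of edgeR's quasi-likelihood fit with Benjamini-Hochberg adjustment over all tested genes. A gene is said to rise, fall or be called where its adjusted p was under 0.05. The 3W libraries held 46618001 and 43017265 counts and the 4W libraries 21452643, 23051315 and 19103776. WT libraries showed the same split, at 49104313 and 42782904 counts at 3W against 23323996 to 25292336 at 4W. Age, depth and any unlabelled batch can therefore not be told apart in either genotype. Over the tested genes, log2 CPM of the CKO 3W pair correlated at r = 0.984 and the CKO 4W pairs at 0.957 to 0.964, while CKO 3W against CKO 4W libraries gave 0.929 to 0.941.

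Dhx36 itself stood at 36.8 and 29.4 CPM in the CKO 3W libraries and at 82.9, 86.0 and 86.8 CPM in the CKO 4W libraries. The log2 difference of 1.36 (SE 0.516) did not pass the test (adjusted p = 0.116). In WT the mean was 25.1 CPM at 3W and 68.6 CPM at 4W, a log2 difference of 1.45. Reads over the whole gene do not check a deletion of some of its exons, and the CKO levels were not below those of WT at either age. Summed over 13 oocyte marker genes, the level was 19765 to 21028 CPM in CKO 3W, 14614 to 19112 CPM in CKO 4W and 23422 to 27155 CPM in WT. Of these 13 genes 0 were called between the CKO ages, with 1 higher and 5 lower at an unadjusted p under 0.05, and DESeq2 called 1 higher and 1 lower.

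Markers of other ovarian cells were low and mostly alike at both ages. The 19 granulosa and cumulus markers summed to 199.8 to 212 CPM at 3W and 203 to 215 CPM at 4W, with Amh, Foxl2 and Ptx3 at 0 counts at 3W and Ptx3 and Has2 at 0 at 4W. Among them Kitl and Has2, members chosen after their values were seen, were called lower. The 13 theca and stroma markers summed to 6.63 to 7.18 CPM and 6.29 to 7.35 CPM, with Insl3, Col1a2, Lum and Tagln at 0 in both. The 6 endothelial markers summed to 36.1 to 42.0 CPM and 42.7 to 46.0 CPM, with Cdh5 and Emcn at 0, and the 6 red blood cell markers to at most 0.510 CPM. The 10 immune markers summed to 21.8 to 28.1 CPM at 3W and 8.75 to 12.5 CPM at 4W, against 17.2 to 27.96 CPM in WT. The part of these cells in the results below was not tested. In pooled cells, fewer cells with an mRNA and less of it per cell cannot be told apart.

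Between 3 and 4 weeks, 604 genes rose in CKO oocytes (2.77% of those tested) and 895 fell (4.11%), together 1499 genes or 6.89%. At least 2-fold changes made up 358 of the higher (1.64%) and 700 of the lower genes (3.22%). The libraries of one age lay wholly above those of the other for 1496 of the 1499 calls, which was also so for 50.6% of the genes tested. Higher genes were 40.3% of these calls, 48.8% with RLE size factors and 48.3% with a stricter filter. They were 50.6% in the fit of the 4 FGO groups alone, 50.7% in the fit of the 2 groups alone and 52.5% in DESeq2. With limma on log2(FPKM + 1) they were 36.7%, and with no filter on low counts 35.1%. The excess of lower calls was thus absent in some fits and larger in others. Without CKO 3W replicate 1, 123 genes were called higher and 305 lower, and without CKO 3W replicate 2 the counts were 126 and 364. Without CKO 4W replicates 1 and 3 they were 410 and 569, and 368 and 500.

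The share of called genes rose with the level. Of 1792 genes with a mean of 100 CPM or more, 10.4% were called, 140 of them higher and 46 lower. Between 10 and 100 CPM 245 rose and 377 fell (9.62% of 6467 genes), and between 1 and 10 CPM 173 rose and 348 fell (8.33% of 6257 genes). Below 1 CPM the share was 2.34%. Abundant mRNAs thus leaned toward higher calls at 4 weeks and less abundant ones toward lower calls. The median absolute log2 change of called genes was 0.708 in the most abundant class and 5.62 in the least abundant.

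The largest rises included an oocyte homeobox gene that was low at 3 weeks. Obox2, of a tandem family of oocyte-specific homeobox genes on chromosome 7, stood at 21.6 and 20.2 CPM in the CKO 3W libraries and at 2751, 2297 and 2138 CPM in the CKO 4W libraries (log2 change 6.84, SE 0.798, adjusted p = 1.78e-06). The CKO 3W pair was the group that stood apart: CKO GO 2W libraries had 1034 to 1184 CPM, WT 3W 1976 and 1309 CPM, and WT 4W 685 to 1202 CPM. Obox genes are near-identical copies, so reads may be split among them.

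Stk32a, a serine/threonine kinase gene, had 2 counts in all at 3W and 156, 148 and 149 CPM in the CKO 4W libraries, a ratio of 8790 (95% counting interval 2430 to 72600). WT libraries held 104 and 81.1 CPM at 3W and 84.6, 0.610 and 117 CPM at 4W, so that WT 4W replicate 2 lacked it while the others had it. Rps2-ps13, a ribosomal protein pseudogene on the X chromosome, behaved alike: 0.411 and 0.573 CPM in CKO 3W, 44.8, 29.5 and 34.5 CPM in CKO 4W, and 18.5, 0.801 and 48.8 CPM in WT 4W. Prss35, which encodes a serine protease-like protein, had 0 counts at 3W and 7.42, 9.37 and 6.20 CPM at 4W, at least 302-fold higher when 3 counts over the group are taken as the floor. Its call ended without CKO 3W replicate 1 (adjusted p = 0.0801) or replicate 2 (adjusted p = 0.0672), and WT 4W replicate 2 again had 0 counts. Dcpp1, of a family of near-identical secreted protein genes, was at least 234-fold higher, with 0 counts at 3W and 4.00, 6.26 and 7.99 CPM at 4W.

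Other large rises differed in their WT levels. Tktl1, a transketolase-like gene on the X chromosome, went from 0 and 0.107 CPM to 6.85, 13.0 and 5.95 CPM, and WT libraries held 0.247 to 1.47 CPM. Zfp990, a zinc finger gene of a cluster on chromosome 4, went from 0.346 and 0.358 CPM to 44.2, 57.1 and 48.5 CPM, against 5.80 to 16.9 CPM in WT. Kcng2, a modifier subunit of voltage-gated potassium channels, went from 0.889 and 0.949 CPM to 68.0, 49.6 and 54.6 CPM (log2 change 5.96, SE 0.666, adjusted p = 1.04e-06), and every CKO GO 2W and WT library was at or below 1.62 CPM. Of 73 potassium channel genes tested 2 rose and 3 fell, and this 6.85% is near the 6.89% of all genes. Mb21d2 went from 0.823 and 0.466 CPM to 46.2, 73.3 and 47.9 CPM. It rose in WT too, from 2.57 and 4.04 CPM to 71.6 to 80.4 CPM.

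**Figure D1:**
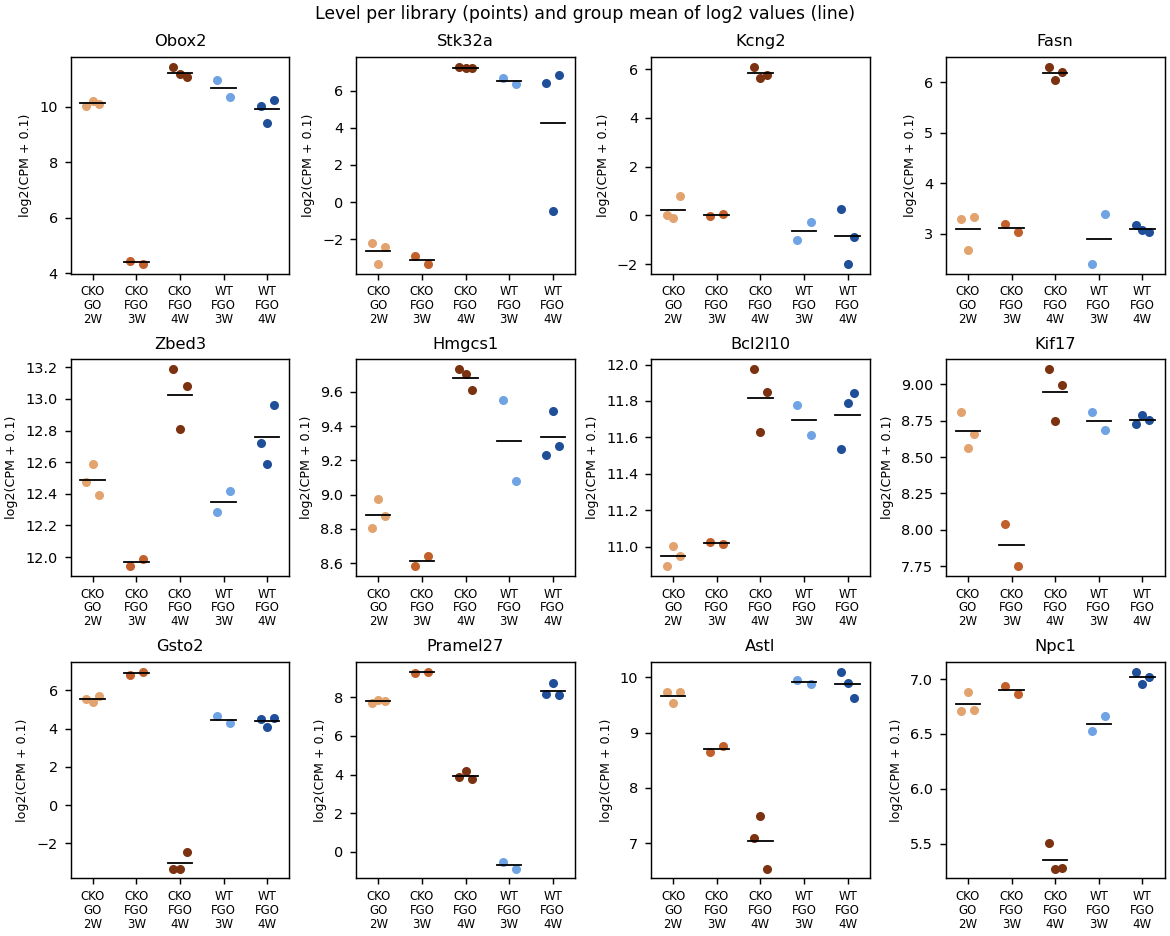
Levels of 12 genes on a log2(CPM + 0.1) scale (vertical axis, with its own range in each panel) in CKO growing oocytes at 2 weeks and in CKO and WT fully grown oocytes at 3 and 4 weeks; points are libraries and lines are group means of the log2 values. Obox2 was lowest in the CKO 3W pair (21.6 and 20.2 CPM), Kcng2 and Fasn were highest in the 3 CKO 4W libraries, and Astl was lowest in the same 3 libraries (93.2 to 179 CPM).

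The largest falls were of mRNAs that reached or neared 0 counts at 4 weeks. Gsto2, an omega-class glutathione S-transferase, stood at 114 and 126 CPM at 3W and had 2 counts in all at 4W, a ratio of 4690 (95% counting interval 1300 to 38800). CKO GO 2W libraries held 41.3 to 51.3 CPM and WT fully grown oocytes 16.9 to 25.04 CPM, so the CKO 4W libraries were alone near 0 among these groups. Extl1, a glycosyltransferase of heparan sulfate synthesis, went from 34.5 and 30.9 CPM to 0 counts in all 3 libraries, at least 857-fold lower. In WT it moved the other way, from 0.395 and 0.124 CPM at 3W to 4.61 to 9.88 CPM at 4W (log2 change 4.63, adjusted p = 0.0156).

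Iqcf1, an IQ-motif protein gene best known from sperm, went from 17.5 and 16.1 CPM to 0 counts, at least 440-fold lower, with 6.24 to 11.2 CPM in WT. Cst9, a cystatin gene, went from 10.2 and 11.5 CPM to 0 counts, at least 282-fold lower, and all 5 WT libraries were at 0 counts. Lcp2, an adaptor of T-cell receptor signalling, went from 5.41 and 6.18 CPM to 2 counts in all, a ratio of 227 (95% counting interval 62.5 to 1880), while WT libraries held 7.002 to 14.4 CPM. Skint5 had 11.6 and 12.4 CPM at 3W and 1 count at 4W, a ratio of 941 (95% counting interval 169 to 37200). Defb8, a beta-defensin gene of a tandem family, had 7.16 and 7.97 CPM at 3W and 0 counts at 4W, at least 197-fold lower. In WT it was at 0 and 0.0824 CPM at 3W and at 8.92, 0.0763 and 15.4 CPM at 4W, with replicate 2 again apart. Intervals and floors concern counting error only and take each count as independent. Both mates of a pair appear to be counted, so the intervals are too narrow and the floors stand for fewer pairs. Reads carry no molecular identifiers.

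On/off patterns of this kind were counted with 1 rule for both genotypes, below 1 CPM in every library of one age and at least 5 CPM in every library of the other. In CKO 29 genes were low at 3W and 39 low at 4W, and in WT 8 and 6. Of the 29 genes low at 3W in CKO, 5 had at least 5 CPM in all 5 WT libraries and 2 were below 1 CPM in all 5. Of the 39 genes low at 4W, the numbers were 6 and 8. Of these 68 genes, 12 (17.6%) also differed between WT 4W libraries of the same age, with at least 5 CPM in 1 and below 1 CPM in another. Over all tested genes 75 did so (0.345%). That share covers genes of any level, while the 68 all reached 5 CPM in CKO, so the shares are not at like levels. In 10 of the 12 it was WT 4W replicate 2 alone that was low, as for Stk32a, Prss35, Rps2-ps13 and Defb8. Over all tested genes 31 were low in WT 4W replicate 2 alone, and 0 in replicate 1 alone or replicate 3 alone. These WT libraries are in neither group of the CKO comparison, but they enter the estimate of spread that all groups share. Without WT 4W replicate 2 the CKO adjusted p of Stk32a in edgeR was 9.71e-11. Without replicate 1 or 3 it was 9.74e-06 or 5.24e-06. For Rps2-ps13 it was 2.26e-07 without replicate 2, and 0.000239 or 4.62e-05 without replicate 1 or 3. What the tubes differed in was not tested.

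Abundant mRNAs of the oocyte also moved by about 2-fold. Zbed3, whose protein binds Axin and lies in the subcortical maternal complex, stood at 3938 and 4067 CPM at 3W and at 9323, 7187 and 8651 CPM at 4W (log2 change 1.07, SE 0.189, adjusted p = 0.000522). It was the 1 called of 19 tested subcortical maternal complex and Nlrp genes (5.26%, against 6.89% of all genes). Their median log2 change was -0.281. Bcl2l10, a Bcl-2 family gene abundant in oocytes, rose from 2085 and 2073 CPM to 4022, 3173 and 3696 CPM (log2 change 0.80, SE 0.128, adjusted p = 0.000157). WT oocytes held 2965 to 3680 CPM at both ages, so the CKO 3W pair lay below the WT range of Bcl2l10 and 2 of the 3 CKO 4W libraries lay above it. Ggct, an enzyme of glutathione turnover, rose from 118 and 115 CPM to 306 to 344 CPM, and WT libraries held 457 to 768 CPM.

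Astl encodes ovastacin, the cortical granule protease that cleaves ZP2 after fertilisation. It fell from 401 and 434 CPM at 3W to 137, 179 and 93.2 CPM at 4W (log2 change -1.61, SE 0.239, adjusted p = 6.47e-05). Both ages were below CKO GO 2W (739 to 854 CPM) and WT oocytes (794 to 1098 CPM), with no overlap. Pnpla3, a lipid droplet acylhydrolase, fell from 1085 and 1087 CPM to 484, 413 and 429 CPM. Vdac2, a channel of the outer mitochondrial membrane, fell from 288 and 279 CPM to 89.9, 97.5 and 92.9 CPM. Cd9, the egg tetraspanin needed for fusion with sperm, went from 403 and 365 CPM to 144, 192 and 179 CPM (log2 change -1.16, SE 0.293, adjusted p = 0.0142). Its call ended without CKO 3W replicate 1 (adjusted p = 0.138), CKO 3W replicate 2 (adjusted p = 0.0701) or CKO 4W replicate 1 (adjusted p = 0.0692). Astl and Cd9 were the 2 called of 21 zona, secreted and egg surface genes (9.52%, against 6.89% of all genes), both lower, and DESeq2 called 1 higher and 3 lower in this list.

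Hmgcs1, the HMG-CoA synthase of cholesterol synthesis, rose from 383 and 399.8 CPM to 849, 834 and 779.8 CPM (log2 change 1.07, SE 0.189, adjusted p = 0.000495). Kif17, a kinesin motor gene, rose from 263 and 215 CPM to 549.8, 430.1 and 509 CPM (log2 change 1.05, SE 0.164, adjusted p = 0.000128). In WT fully grown oocytes Hmgcs1 held 540.1 to 749 CPM and Kif17 412 to 449 CPM. Promoters of these genes with Astl and Pnpla3 are shown because they hold a match to the G-quadruplex motif, the structure that DHX36 unwinds, on both sides of the change. Each is 250 bases before to 50 after the RefSeq start on GRCm38.p6, read along the gene, with the first match in capitals. Only the first listed promoter of a gene was searched, and Astl had 2. The motif was 4 runs of at least 3 G joined by 1 to 7 bases of any kind, searched on both strands. A match written in C lies on the other strand.
Hmgcs1, chr13:119690101-119690400, plus strand, higher at 4W: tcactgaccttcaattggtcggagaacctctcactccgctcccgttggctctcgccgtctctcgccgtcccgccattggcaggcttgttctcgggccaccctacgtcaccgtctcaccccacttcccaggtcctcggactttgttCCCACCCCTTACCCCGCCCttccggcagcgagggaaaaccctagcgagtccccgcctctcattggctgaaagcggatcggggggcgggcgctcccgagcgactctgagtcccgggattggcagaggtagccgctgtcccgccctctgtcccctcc
Kif17, chr4:138262001-138262300, plus strand, higher at 4W: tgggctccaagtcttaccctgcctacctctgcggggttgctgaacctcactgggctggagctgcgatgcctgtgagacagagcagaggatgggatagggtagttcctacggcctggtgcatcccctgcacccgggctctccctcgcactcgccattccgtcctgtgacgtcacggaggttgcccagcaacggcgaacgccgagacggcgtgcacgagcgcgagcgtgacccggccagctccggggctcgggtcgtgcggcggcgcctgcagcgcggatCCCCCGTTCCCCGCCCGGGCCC
Astl, chr2:127338389-127338688, plus strand, lower at 4W: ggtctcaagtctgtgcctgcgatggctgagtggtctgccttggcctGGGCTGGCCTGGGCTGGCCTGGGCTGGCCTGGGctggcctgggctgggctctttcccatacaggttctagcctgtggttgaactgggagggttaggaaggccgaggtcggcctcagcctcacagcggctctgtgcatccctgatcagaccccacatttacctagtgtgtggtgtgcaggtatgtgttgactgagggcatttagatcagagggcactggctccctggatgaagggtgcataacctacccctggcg
Pnpla3, chr15:84167566-84167865, plus strand, lower at 4W: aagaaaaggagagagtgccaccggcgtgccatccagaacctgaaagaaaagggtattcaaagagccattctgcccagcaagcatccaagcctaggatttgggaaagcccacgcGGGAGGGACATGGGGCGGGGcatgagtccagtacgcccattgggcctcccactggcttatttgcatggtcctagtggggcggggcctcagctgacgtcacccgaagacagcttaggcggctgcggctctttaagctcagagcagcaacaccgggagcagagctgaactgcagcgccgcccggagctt
A match is a description of the letters. Of the 112 genes named by rule, 88 had a promoter in the RefSeq table and 24 of these held a match, against 24.9% of the promoters of all tested protein-coding genes. Promoters were found for 81.1% of the higher and 77.7% of the lower protein-coding genes. Of those found, 21.6% of the higher and 25.9% of the lower held a match. These shares were not tested, and the gap in promoters found limits their comparison. In the longest transcript of each gene, matches on the sense strand were in 14.2% of the higher and 14.3% of the lower protein-coding genes, and in 20.2% of all tested. These transcript shares were not tested either. Called genes also differed from all tested genes in level, length and GC content, which were not matched.

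Cytoplasmic ribosomal protein genes, which encode the proteins of the ribosome, had mostly positive changes. Of 83 tested genes of cytoplasmic ribosomal proteins 17 rose and 1 fell (21.7% called, against 6.89% of all genes), with a median log2 change of 0.543 against -0.016 for all genes, and 75 of the 83 values were above 0. Their summed level was 7852 and 7719 CPM in CKO 3W, 10475, 10735 and 12154 CPM in CKO 4W, and 10006 to 12008 CPM in WT, so the CKO 3W pair lay below every other fully grown oocyte library. CKO GO 2W libraries held 8341 to 8619 CPM. Among fully grown oocytes the CKO 3W pair was also lowest in the sum of 70 translation initiation and elongation factor genes. That sum was 8472 and 8504 CPM, against 9397 CPM or more in the other fully grown oocyte libraries. Rplp0, of the ribosomal stalk, rose from 189 and 191 CPM to 379.9, 353 and 369.9 CPM (log2 change 0.95, SE 0.192, adjusted p = 0.00218). Rpl30 rose from 23.5 and 20.9 CPM to 67.5 to 68.6 CPM. Rpl29 was the exception and fell from 16.5 and 17.5 CPM to 3.77, 1.83 and 2.21 CPM, while WT libraries held 23.4 to 28.8 CPM. Ribosomal protein genes have many near-identical pseudogenes, which can take or give reads. The number of higher ribosomal protein genes was 2 without either CKO 3W replicate, 5 without CKO 4W replicate 3, 11 without CKO 4W replicate 1 and 8 without WT 3W replicate 1. The call of Rplp0 ended without CKO 3W replicate 1 (adjusted p = 0.0600) or replicate 2 (adjusted p = 0.0507).

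Of 86 oxidative phosphorylation genes 3 rose and 0 fell, a called share of 3.49% that is below the 6.89% of all genes, with 26 higher and 0 lower at an unadjusted p under 0.05 and 15 higher and 0 lower in DESeq2. The median log2 change was 0.360 and 73 values were above 0, and without CKO 3W replicate 1 the higher count was 1. The sum was 6261 and 6240 CPM at 3W and 7503, 7856 and 8604 CPM at 4W, against 7699 to 9296 CPM in WT. Uqcrq, a subunit of complex III, rose from 84.0 and 80.2 CPM to 202, 251 and 277 CPM (log2 change 1.57, SE 0.255, adjusted p = 0.000217). Of 78 mitochondrial ribosomal protein genes 5 rose and 1 fell (7.69% called, near the 6.89% of all genes, median 0.254), and without CKO 3W replicate 1 or 2 the higher count was 0, with 14 higher at an unadjusted p under 0.05 in the full fit and 12 in DESeq2. Of 68 spliceosome genes 3 rose and 0 fell (4.41% called, below the 6.89% of all genes, median 0.300). At an unadjusted p under 0.05 17 were higher and 2 lower, DESeq2 called 14 higher and 0 lower, and without CKO 3W replicate 1 or 2 the higher count was 0 or 1. Of 83 RNA polymerase and nucleolus genes 6 rose and 2 fell (9.64%, against 6.89% of all genes). Polr2k, a small subunit shared by the nuclear RNA polymerases, rose from 19.1 and 17.7 CPM to 60.6, 47.6 and 59.4 CPM.

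**Figure D2:**
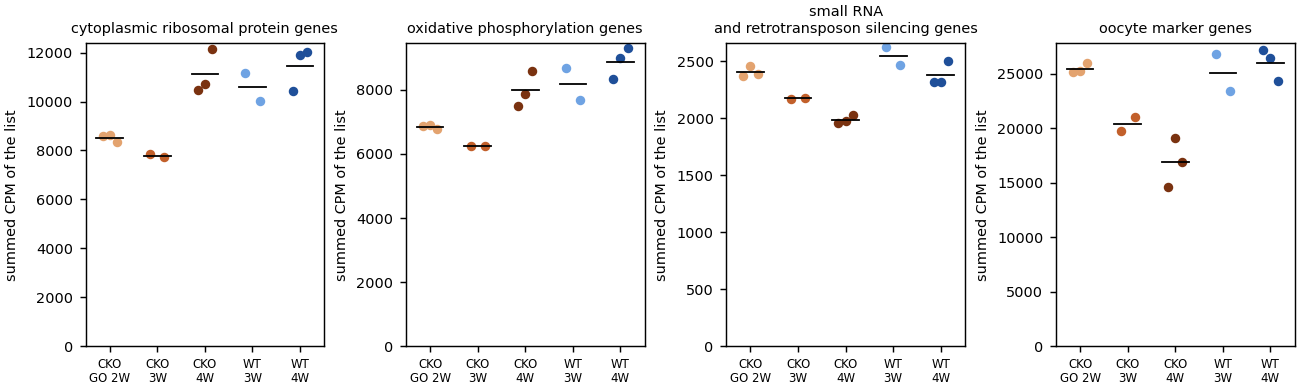
Summed CPM (vertical axis, from 0) of 4 gene lists in each library of 5 groups (horizontal axis), with group means as lines. Ribosomal protein and oxidative phosphorylation sums were lower in the CKO 3W pair (7852 and 7719 CPM, 6261 and 6240 CPM) than in every CKO 4W and WT fully grown oocyte library. The sums of small RNA genes and oocyte markers were lower in CKO than in WT fully grown oocytes at both ages. Lower CKO sums were not particular to these lists: 16 oocyte transcription factor genes summed to 3107 to 3528 CPM in CKO and 4677 to 5373 CPM in WT. TMM factors of these libraries were 1.21 to 1.30 in CKO and 1.03 to 1.14 in WT, and the part of scaling was not tested.

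Many genes of these groups are short. The median exon length behind the authors' FPKM was 867 bases for the ribosomal protein genes and 922 bases for the oxidative phosphorylation genes, against 2946 bases for all tested genes. Among protein-coding genes the median log2 change in CKO was 0.287 below 1000 bases and -0.086 at 6000 bases or more. Called genes followed the same order: 5.58% of the shortest class rose and 2.97% fell, while 1.80% of the longest class rose and 5.51% fell. WT medians also fell with length, over a narrower span, from 0.109 to -0.131. Higher genes had a median exon length of 2354 bases and lower genes 3731 bases, and the median GC content of their transcripts was 50.4% and 46.9%, against 49.7% for all. The part of length in the changes of these groups was not tested.

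**Figure D3:**
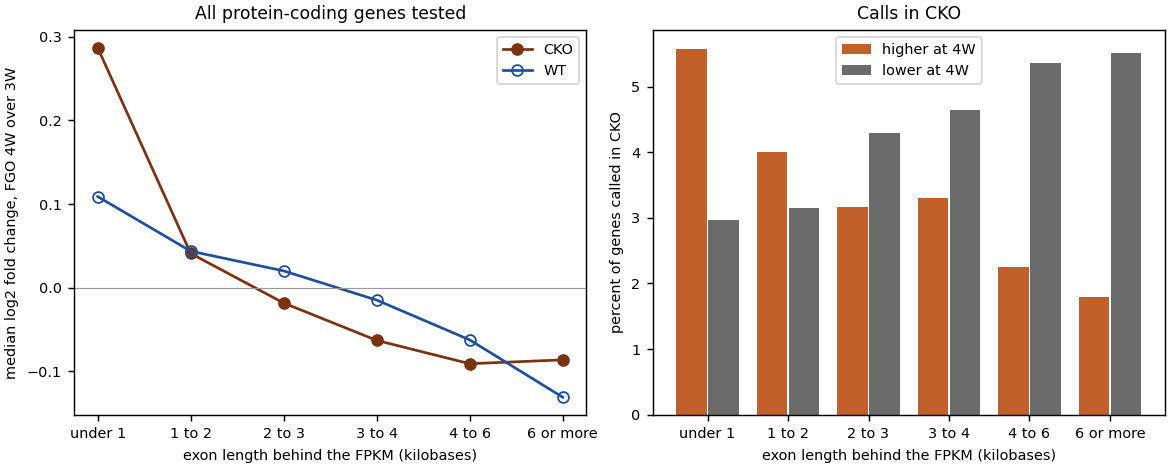
Median log2 fold change at 4W over 3W in CKO and WT (left) and percent of genes called higher or lower in CKO (right), in 6 classes of exon length in kilobases, over the tested protein-coding genes. The medians fell from 0.287 in CKO and 0.109 in WT in the shortest class to -0.086 and -0.131 in the longest.

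Genes of small RNA pathways and retrotransposon silencing had mostly negative changes. Of 31 tested 0 rose and 4 fell (12.9% called, against 6.89% of all genes), with a median log2 change of -0.453, and at an unadjusted p under 0.05 1 was higher and 12 lower, while DESeq2 called 1 higher and 4 lower. The sum was 2171 and 2180 CPM at 3W, 1960 to 2029 CPM at 4W and 2316 to 2623 CPM in WT. Ago3, an Argonaute protein gene, fell from 91.9 and 89.8 CPM to 48.3, 48.1 and 52.1 CPM (log2 change -0.88, SE 0.154, adjusted p = 0.000481), and WT libraries held 74.1 to 109 CPM. Mov10, an RNA helicase gene that restrains retrotransposons, fell from 28.7 and 25.8 CPM to 8.50, 11.8 and 9.47 CPM. Mov10l1, the helicase of piRNA biogenesis, fell from 8.82 and 9.15 CPM to 3.31, 2.45 and 2.21 CPM. Ago2, the slicing Argonaute, fell from 25.2 and 23.0 CPM to 10.04, 15.01 and 14.1 CPM, and its call ended without CKO 3W replicate 1 (adjusted p = 0.139), CKO 3W replicate 2 (adjusted p = 0.0612) or CKO 4W replicate 1 (adjusted p = 0.0659). The genes of this list are long, with a median of 5246 bases.

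Lipid and stress genes gave a few strong changes. Fasn, the fatty acid synthase, stood at 9.10 and 8.13 CPM at 3W and at 78.7, 65.8 and 73.6 CPM at 4W (log2 change 3.08, SE 0.432, adjusted p = 3.17e-05). CKO GO 2W libraries held 6.33 to 9.99 CPM and WT fully grown oocytes 5.21 to 10.4 CPM, so the 3 CKO 4W libraries alone were high. Fasn and Hmgcs1 were the 2 called of 28 cholesterol and fatty acid synthesis genes (7.14%, near the share over all genes), whose median was 0.035. Npc1, which exports cholesterol from lysosomes, fell from 122 and 116 CPM to 45.2, 38.6 and 38.7 CPM (log2 change -1.55, SE 0.199, adjusted p = 8.81e-06), below the 92.1 to 134 CPM of WT. It was 1 of the 2 called among 37 autophagy and lysosome genes (5.41%, against 6.89% of all genes), both lower.

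Nfe2l2, which encodes the oxidative stress factor NRF2, fell from 43.8 and 35.5 CPM to 10.5, 11.3 and 7.78 CPM (log2 change -2.01, SE 0.303, adjusted p = 8.33e-05), and WT libraries ranged from 10.98 to 24.8 CPM. Gpx3, a secreted glutathione peroxidase, fell from 27.5 and 29.3 CPM to 13.2, 14.3 and 14.1 CPM. Prdx6, a peroxiredoxin gene, rose from 8.52 and 7.83 CPM to 23.7, 27.4 and 18.5 CPM, but not without CKO 3W replicate 2 (adjusted p = 0.0516). These redox genes moved in both directions, 2 higher and 2 lower of 32 tested (12.5% called, against 6.89% of all genes). Of 43 integrated stress and unfolded protein response genes 4 rose and 2 fell (14.0% called, against 6.89% of all genes). Fewer were called when either CKO 3W library was left out. Eif2ak3, the kinase PERK of the endoplasmic reticulum, was called under all 22 alternatives and rose from 11.4 and 9.87 CPM to 35.2, 31.8 and 32.1 CPM. It rose in WT too, from 3.85 and 8.40 CPM to 18.6 to 23.9 CPM.

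Meiotic and early embryonic genes held many low-abundance members. Of 25 meiotic cohesin, axis and recombination genes 3 rose and 4 fell (28% called, against 6.89% of all genes, median -0.242). Without CKO 3W replicate 1 or 2, 0 were higher and 2 lower. Ythdc2, an RNA helicase gene needed for meiotic entry, fell from 17.4 and 17.97 CPM to 6.54, 5.84 and 6.92 CPM, and Meioc, which encodes its partner, from 1.84 and 1.68 CPM to 0.231, 0.207 and 0 CPM. Dmc1, the meiotic recombinase, rose from 0.0987 and 0.107 CPM to 2.38, 1.73 and 1.91 CPM, a level that remained low, and its call ended without CKO 3W replicate 1 (adjusted p = 0.0813) or replicate 2 (adjusted p = 0.0631). Of 52 genes of meiotic resumption and metaphase II arrest 0 were called, with 11 higher and 3 lower at an unadjusted p under 0.05, and 6 higher and 1 lower in DESeq2.

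Of 38 zygotic genome activation and early embryonic genes 6 rose and 1 fell (18.4% called, against 6.89% of all genes, median 0.365). Without CKO 3W replicate 1 or 2, 1 was higher, which leaves Obox2, and without CKO 4W replicates 1, 2 and 3 the higher counts were 2, 3 and 4. The other higher genes were Zscan4b, Zscan4d, Zscan4f, Usp17lb and Nelfa, of which the Zscan4 and Usp17l genes belong to multi-copy families. Zscan4f went from 0.0329 and 0.0537 CPM to 2.69, 2.77 and 1.10 CPM, and Usp17lb from 0.658 and 0.501 CPM to 20.5, 15.5 and 2.46 CPM. Sp110, a nuclear body gene, fell from 259.8 and 264 CPM to 129, 146 and 122 CPM, below the 285 to 359 CPM of WT.

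Among 70 tubulin and kinesin genes 2 rose and 5 fell (10% called, against 6.89% of all genes). Kif16b, a kinesin of endosome transport, fell from 147 and 124 CPM to 53.7, 57.8 and 57.6 CPM, and Stmn1, whose protein destabilises microtubules, from 30.9 and 29.9 CPM to 13.8, 11.1 and 17.5 CPM. H2bc1, a histone H2B gene typical of testis, rose from 1.79 in both 3W libraries to 29.7, 4.36 and 17.2 CPM, with CKO 4W replicate 2 the lowest. Of 32 glycolysis and pentose phosphate genes 0 were called, with 2 higher and 2 lower at an unadjusted p under 0.05, and DESeq2 called 0 higher and 1 lower.

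**Figure D4:**
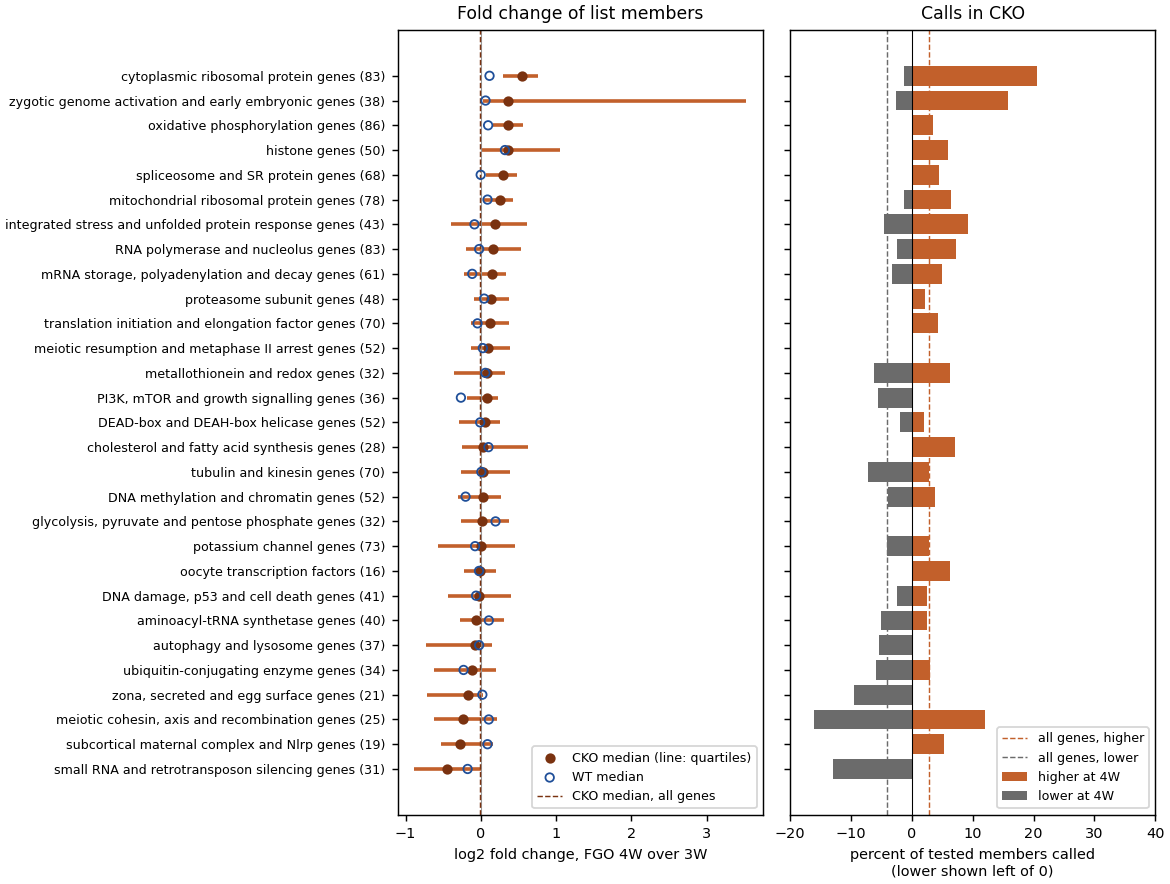
Left, the median (filled point) and quartiles (line) of the log2 fold change at 4W over 3W in CKO for 29 gene lists, with the WT median as an open circle and the median of all tested genes as a dashed line; right, the percent of tested members called higher or lower in CKO, with the percent over all genes as dashed lines. The number of tested members follows each list's name. Ribosomal protein genes had the highest median (0.543) and small RNA genes the lowest (-0.453).

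In WT oocytes the same ages differed less. In WT 64 genes rose (0.294%) and 62 fell (0.285%), together 126 or 0.579% of the tested genes, with the same numbers of libraries. At least 2-fold changes were 0.271% (higher) and 0.262% (lower). At an unadjusted p under 0.05 there were 4323 genes in CKO and 1927 in WT. Across genes the CKO and WT age changes, which share no library, correlated at r = -0.047 and rho = 0.048. Of the 1499 CKO calls and the 126 WT calls 48 were shared, 3.20% of the former and 38.1% of the latter. Of these 48, 27 fell in CKO and rose in WT, 11 rose in CKO and fell in WT, and 10 moved one way in both.

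The 10 genes that moved one way in both genotypes, named after their values were seen, were Mb21d2, Eif2ak3, Rpl35a, Cd7, Gm13319 and Gm19430 among the higher and Slc12a8, Mt4, Pik3c2g and Klhl21 among the lower. Slc12a8, a transporter gene, fell from 221 and 237 CPM to 25.6, 26.1 and 24.8 CPM in CKO and from 217 and 158 CPM to 24.99, 31.4 and 25.9 CPM in WT. Its log2 change was -3.17 (SE 0.267) in CKO and -2.77 (SE 0.264) in WT. Rpl35a rose from 6.22 and 5.14 CPM to 20.2, 20.4 and 21.7 CPM in CKO and from 8.60 and 8.34 CPM to 31.2 to 34.9 CPM in WT. Levels were not alike for every one of the 10: Mt4 averaged 33.1 CPM in CKO and 5.46 CPM in WT at 3W, and 12.5 CPM and 2.33 CPM at 4W.

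The test of the difference itself, the CKO age change minus the WT age change, called 240 genes higher (1.10%) and 352 lower (1.62%), together 592 or 2.72%. At least 2-fold were 1.05% and 1.57%. Caln1, a calcium-binding calneuron gene, rose in CKO from 15.8 and 13.4 CPM to 76.8, 63.9 and 74.0 CPM, while WT went from 95.8 and 79.0 CPM to 51.7 to 58.1 CPM (log2 difference of the changes 2.98, SE 0.268, adjusted p = 3.36e-08). Plekhh1 rose from 1.02 and 0.501 CPM to 20.2 to 21.0 CPM in CKO, and WT held 23.1 to 44.4 CPM. Cachd1 rose from 0.757 and 0.322 CPM to 9.58 to 9.77 CPM, and WT held 8.01 to 26.4 CPM. In these 3 genes the CKO 3W pair was lowest and the CKO 4W libraries lay in or near the WT range.

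Cap1, of actin turnover, moved in opposite directions, from 2.99 and 2.53 CPM to 12.001, 22.6 and 13.3 CPM in CKO and from 20.8 and 13.1 CPM to 4.04 to 5.33 CPM in WT (log2 difference of the changes 4.42, SE 0.446, adjusted p = 1.82e-07). Cd300c, an immune receptor gene, fell in CKO from 11.4 and 11.7 CPM to 0.0769, 0.415 and 0.0850 CPM, and WT held 4.82 to 16.6 CPM. Pglyrp1, a peptidoglycan recognition protein gene, fell from 6.71 and 7.003 CPM to 0.5001, 0.622 and 0.255 CPM, and WT held 3.99 to 11.4 CPM. In both genes the CKO 4W libraries were below every other.

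Opposite changes included members of gene clusters on chromosome 4. Pramel27, of the PRAME-like multigene family of germ cells, fell in CKO from 606 and 639 CPM to 14.5, 18.3 and 13.6 CPM (log2 change -5.33, SE 0.615, adjusted p = 1.54e-06). In WT it rose from 0.592 and 0.453 CPM to 289.5, 429 and 278 CPM (log2 change 9.30, adjusted p = 2.73e-07). Pramel23 did likewise, from 743 and 821 CPM to 57.7, 52.2 and 45.1 CPM in CKO and from 6.41 and 2.29 CPM to 127 to 150.3 CPM in WT. Zfp985 went the other way, from 4.48 and 5.07 CPM to 49.0, 71.4 and 52.98 CPM in CKO and from 63.8 and 50.1 CPM to 2.63, 4.69 and 6.98 CPM in WT. CKO GO 2W libraries lay between, at 211 to 235 CPM for Pramel27 and 29.5 to 34.5 CPM for Zfp985.

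Between 140 and 150 Mb of chromosome 4, a window chosen after its genes were seen, 158 genes were tested. In CKO 15 of them rose and 13 fell (17.7%, against 6.89% of all genes). In WT 12 were called (7.59%, against 0.579% of all genes). These clusters hold near-identical copies, so reads may be split among members. Cbx3-ps6, a pseudogene on chromosome 14, showed the same opposition: 6.94 and 7.13 CPM at CKO 3W and 2 counts in all at CKO 4W, against 0 and 0.165 CPM at WT 3W and 5.26 to 6.64 CPM at WT 4W.

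**Figure D5:**
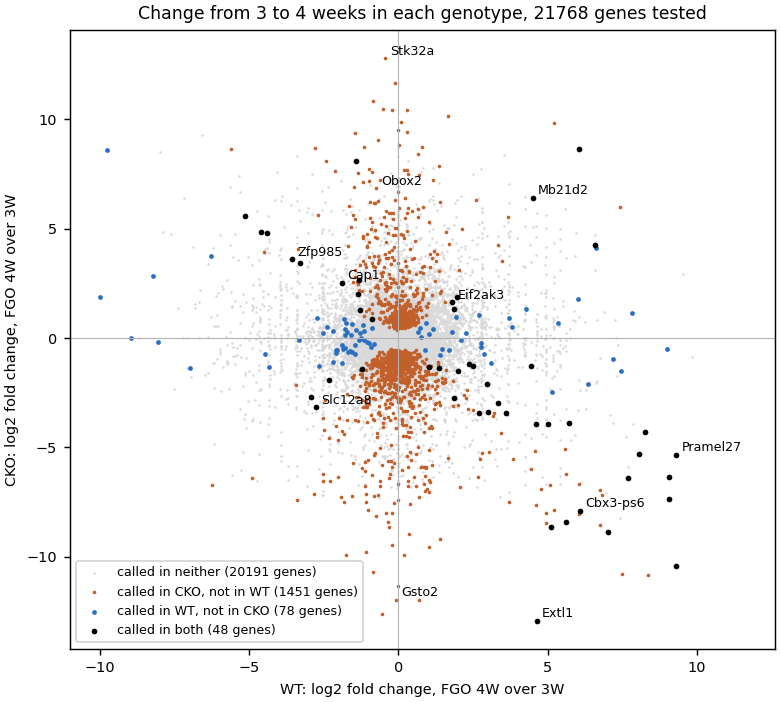
Log2 fold change at 4W over 3W in CKO (vertical axis) against that in WT (horizontal axis) for the 21768 tested genes, coloured by whether the gene was called in neither, one or both genotypes. The 1451 genes called in CKO and not in WT lie mostly about the vertical axis, and Pramel27, Extl1 and Cbx3-ps6 lie at the lower right among the 27 genes that fell in CKO and rose in WT.

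Called genes were also placed by which CKO age lay nearer to another group on the log2 scale. Of the 604 higher genes, the CKO 4W mean lay nearer the WT 3W mean for 58.6%, nearer the WT 4W mean for 61.9% and nearer the CKO GO 2W mean for 35.3%. Of the 895 lower genes, the CKO 4W mean lay nearer for 39.9%, 38.7% and 24.2%. Most higher genes thus had CKO 4W levels closer to WT, most lower genes had CKO 3W levels closer to WT, and most of both were closer to growing oocytes at 3 weeks than at 4 weeks. These shares describe genes chosen by the CKO change and were not tested. The same shares over all tested genes were not computed, so the values are not known to be particular to called genes.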

How the data were processed

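Smart-seq2 libraries of 29 tubes of 10 cells were grouped by their labels into 10 groups. Per the submitters' processing notes, Trim Galore, FastQC, HISAT2, SAMtools and featureCounts were used on mm10, with versions, annotation release and strand setting not given in the sources used here. The authors deposited raw read counts and FPKM per gene symbol. Of counts from 1 to 20, 81.5% were even, so both mates of a pair appear to be counted. A floor of 3 counts then stands for fewer pairs, and the counting intervals are too narrow.

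The fit was made with edgeR 4.0.16 under R 4.3.3, on the counts of all 10 groups in 1 model (TMM, filterByExpr with a minimum count of 10), with quasi-likelihood F tests, a trended dispersion (19 residual and 8.308 prior degrees of freedom) and Benjamini-Hochberg adjustment at 0.05. The procedure was tested on simulated data. The contrasts were 4W minus 3W in CKO and in WT, and their difference. Alternatives used DESeq2 1.42.0 and limma 3.58.1 on log2(FPKM + 1). The samples and gene lists were chosen with earlier results of these data known. Named genes were Dhx36, the 8 highest and 8 lowest changes (called, ranges apart, no predicted name, at least 5 CPM in the higher group), 6 and 6 abundant genes changed at least 2-fold, 6 and 6 for the difference, and up to 4 called members per list by adjusted p. Gene symbols, coordinates and promoters came from RefSeq (GRCm38.p6), transcripts from GENCODE vM21 and scripts ran in Python 3.11.15.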

Additional observations from a re-analysis of the deposited data

Results flagged for a closer look

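For 45 of the named genes the age change differed between genotypes by the test of the difference itself (adjusted p under 0.05, edgeR). The values below are log2 age changes in CKO minus those in WT, and each gene was named partly for the size of its CKO change. No explanation was tested.

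Among genes with a greater rise in CKO, the difference was 13.24 for Stk32a, 11.68 for Prss35, 11.02 for Dcpp1, 8.32 for Zfp990, 7.59 for Obox2, 7.17 for Zfp985, 6.97 for Rps2-ps13, 6.10 for Tktl1, 5.94 for Kcng2, 5.93 for Dmc1, 5.82 for Hmgn2-ps1, 5.19 for Cachd1, 4.67 for Plekhh1 and 4.42 for Cap1. It was 2.98 for Caln1, 2.97 for Fasn, 2.28 for Rpl30, 2.19 for Polr2k, 1.496 for Prdx6, 1.33 for Uqcrq, 1.06 for Hmgcs1, 1.04 for Kif17 and 0.77 for Bcl2l10.

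Among genes with a lower value in CKO, the difference was -18.31 for Defb8, -17.55 for Extl1, -14.63 for Pramel27, -13.98 for Cbx3-ps6, -12.64 for Iqcf1, -11.89 for Gsto2, -9.26 for Skint5, -8.92 for Pramel23, -7.99 for Lcp2, -6.95 for Cd300c, -5.74 for Zfp618 and -4.77 for Pglyrp1. It was -2.86 for Rpl29, -2.25 for Pnpla3, -2.21 for Mov10l1, -2.09 for Nfe2l2, -1.97 for Npc1, -1.58 for Astl, -1.51 for Stmn1, -1.24 for Ago3, -1.20 for Kif16b and -1.12 for Gpx3. Values for genes with a group at 0 or near 0 counts depend on the prior count and are no measure of size.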

How the results depend on the processing

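All values are counts of genes called, higher then lower, from 22 alternatives. In CKO (604 and 895) the fit of the 4 FGO groups alone gave 1583 and 1548, the fit of the 2 groups alone 2363 and 2295, DESeq2 1247 and 1130, limma on log2(FPKM + 1) 974 and 1683, and the same with no filter 1176 and 2671. Leaving out 1 library gave 123 to 642 and 305 to 947. In WT (64 and 62) these fits gave 116 and 128, 40 and 35, 200 and 123, 101 and 116, and 100 and 164, no filter on low counts gave 168 and 301, and leaving out 1 library gave 18 to 77 and 20 to 97. For the difference (240 and 352) the 4 FGO groups alone gave 662 and 648, DESeq2 465 and 648, limma 423 and 730, limma with no filter 475 and 901, no filter on counts 454 and 551, and leaving out 1 library 94 to 267 and 154 to 331.

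With the replicate block, CKO had 280 and 412 calls, WT 33 and 33 and the difference 153 and 188. Same-numbered 3W and 4W libraries did not deviate together (r = 0.003 and 0.004 in CKO, -0.091 and -0.059 in WT). With 2 libraries at 3W their deviations from the mean are exact opposites. This check therefore cannot settle whether the numbers pair the samples. The block kept 678 of the 1499 CKO calls. Of the 1499, 426 were kept without CKO 3W replicate 1, 488 without CKO 3W replicate 2, 1386 with RLE size factors and 1307 when the FGO libraries were thinned to the smallest total, an alternative chosen after seeing the data. Of 111 called named genes, 54 stayed called under every one of the 22 alternatives that tested them, 57 lost the call in at least 1 and 0 changed direction. Among the 54, Meioc was tested in 20 of the alternatives. With 2 libraries at 3W, 1 library decides many calls. The causes were not tested.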
